A study of Homo sapiens with 36 samples.

Results

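The miR-210 locus was represented by 3 of the 63247 features that were counted in this series. These were the mature miRNAs hsa-miR-210-3p and hsa-miR-210-5p, which are the arms of a single hairpin and 2 of the 2656 miRNAs of the miRNA count table, and MIR210HG, the long noncoding host gene of that hairpin and 1 of the 60591 genes of the mRNA count table. The members were taken by name, with no measured value in the rule, although the locus itself was picked with earlier results of these data known. The series holds 18 mRNA and 18 miRNA libraries from Caco-2 and HT-29 cells, human lines derived from colorectal cancer, with 3 biological replicates in each of 6 groups per assay. Cells received 300 µM cobalt chloride (CoCl2), 5 µM of the oxyquinoline derivative 4896-3212 (OD), or neither, for 24 h. The controls carry the label of no treatment and, per the treatment protocol, received dimethyl sulfoxide, the solvent of OD. The CoCl2 stock was made in water, and the sources differ on whether solvent was also added to the CoCl2 medium. Caco-2 cells had been kept under differentiation conditions for 21 days, whereas no such period was stated for HT-29, so cell line and culture state cannot be told apart. Each line is an immortal cancer line, so the replicates of a group are cultures and not donors.

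MicroRNAs are cut from a hairpin in a longer transcript by DROSHA and then DICER1, and as a rule one arm, the guide, is kept by an Argonaute protein while the other, the passenger, is degraded. The miR-210 hairpin is a well known transcriptional target of hypoxia-inducible factor (HIF), and its 3p arm is the guide, which pairs through bases 2 to 8 (the seed) with sites in the 3′ untranslated region (UTR) of messenger RNAs, including those of mitochondrial iron-sulfur cluster and respiratory chain proteins. Under normal oxygen, prolyl hydroxylases mark HIF for degradation, and both CoCl2 and oxyquinoline derivatives inhibit these enzymes.

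The mature arms are shown because the reads of the miRNA libraries were assigned to them by sequence. In each, the seed is in capitals. Sequences and positions are those of RefSeq on GRCh38.p14. The 3p arm lies at chr11:568112-568133 and the 5p arm at chr11:568150-568171, both on the minus strand.
hsa-miR-210-3p: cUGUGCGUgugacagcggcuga
hsa-miR-210-5p: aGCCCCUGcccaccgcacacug
The hairpin of 110 bases at chr11:568089-568198 (minus strand) holds both, with the 5p arm first and the 3p arm second in capitals.
MIR210 hairpin: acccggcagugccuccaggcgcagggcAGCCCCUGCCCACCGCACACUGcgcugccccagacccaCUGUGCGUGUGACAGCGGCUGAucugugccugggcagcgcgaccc
Among 2370 mature human miRNAs of the RefSeq table, 0 others shared the seed of the 3p arm and 0 others that of the 5p arm. Neither arm thus had a seed family member there. Whether reads of other sequences were assigned to an arm was not tested.

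MIR210HG (ENSG00000247095.5) is annotated in GENCODE v44 as a lncRNA at chr11:565657-568457 on the minus strand of GRCh38, with 9 transcripts. The hairpin lay within an intron of all 9, so reads over the spliced host and reads of the mature arms come from different parts of the locus. In the mRNA table the row of the hairpin gene MIR210 held 0 to 5 counts per library, and it was not analysed further. The promoter is shown because HIF binds the core letters ACGTG and GCGTG, which are in capitals. It spans 250 bases before to 50 bases after the start of the gene, chr11:568408-568707 on the minus strand.
MIR210HG promoter: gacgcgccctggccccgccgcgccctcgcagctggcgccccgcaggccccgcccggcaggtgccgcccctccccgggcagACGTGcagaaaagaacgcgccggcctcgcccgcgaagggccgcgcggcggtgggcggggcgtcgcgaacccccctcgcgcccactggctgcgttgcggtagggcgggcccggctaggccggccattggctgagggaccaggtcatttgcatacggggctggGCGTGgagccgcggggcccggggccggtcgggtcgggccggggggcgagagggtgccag
On either strand it held ACGTG once, at -170 from the start, and GCGTG once, at -9. Of 35116 promoters of this length, 21.4% held ACGTG, 36.5% held GCGTG and 48.4% held either, while 23.1% held at least 2 matches in all. The promoter held 80% G and C against a median of 58.7%, and composition alone changes how often such letters occur. A match is not evidence of binding.

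The mRNA libraries held 12925719 to 22332639 counts. Of the miRNA libraries, 3 were shallow: CoCl2 replicate 1 of HT-29 (34043 counts), OD replicate 3 of HT-29 (466975) and control replicate 3 of Caco-2 (763531), while the others held 3779390 to 13092513. A count of 0 would allow up to 88.1, 6.42 and 3.93 CPM in these 3 libraries, where CPM are counts scaled to 1000000 per library. All 7 intestinal epithelial markers checked stood above 1 CPM in every library of both lines, as did 5 of 6 enterocyte markers in Caco-2. In HT-29 the enterocyte markers SI and FABP1 stood above it in every library, and ALPI, FABP2, APOA4 and APOB below it. Of 4 markers of other cell types, the leukocyte marker PTPRC stood below it in every library, whereas COL1A1, PDGFRA and PECAM1, known from fibroblasts and endothelium, stood above it in every Caco-2 library and COL1A1 in every HT-29 library. The summed level of these 4 in controls was 42.2 CPM in Caco-2 and 3.14 CPM in HT-29, and their part in the results was not tested. A lower level in bulk RNA can come from fewer cells of a kind or from less RNA per cell, which cannot be told apart here.

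The first question was whether the host gene responded to each agent. MIR210HG rose under each agent in each line. Its largest rise was that of HT-29 under CoCl2, and its smallest that of HT-29 under OD. In Caco-2, the control libraries held 120, 125 and 91 counts of MIR210HG, the CoCl2 libraries 348, 378 and 454, and the OD libraries 254, 349 and 306. Every treated library was above every control, as was the case for 33.7% of genes under CoCl2 and 29.6% under OD. On TMM-scaled library sizes (trimmed mean of M values), the controls stood at 7.22 ± 1.06 CPM (SD, n = 3), the CoCl2 group at 27.0 ± 2.26 and the OD group at 19.9 ± 2.44. In edgeR's quasi-likelihood test, with Benjamini-Hochberg adjustment over all genes tested (FDR), CoCl2 raised it by 1.90 on the log2 scale (SE 0.13, FDR 8.42e-12), which is 3.72-fold with a 95% interval of 3.08 to 4.51. OD raised it by 1.46 (SE 0.13, FDR 3.35e-09), which is 2.75-fold (2.27 to 3.34). Features with an FDR under 0.05 and an absolute log2 fold change over 1 are referred to as called, and MIR210HG was called in both comparisons, in which 23.4% (CoCl2) and 11.7% (OD) of 16034 genes were. CoCl2 exceeded OD by 0.44 (SE 0.12, FDR 0.00382), a difference under the fold limit that 11.7% of genes passed. The CoCl2 libraries were all above the OD libraries, as for 25.8% of genes, and 24.4% of genes were higher at this FDR without the fold limit. With library size in place of TMM this difference was 0.27 (FDR 0.0842).

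In HT-29 the agents were further apart. The HT-29 controls held 107, 113 and 148 counts of MIR210HG, the CoCl2 libraries 584, 593 and 527, and the OD libraries 191, 152 and 170. The OD libraries sat just above the controls in level and far below CoCl2, with no overlap between any pair of groups. The treated libraries were all above the controls for 40.5% (CoCl2) and 35.6% (OD) of genes, and CoCl2 was all above OD for 37.7%. The levels were 6.21 ± 0.675, 42.7 ± 1.44 and 9.26 ± 0.550 CPM (SD, n = 3). CoCl2 raised MIR210HG by 2.80 on the log2 scale (SE 0.087, FDR 7.30e-21, edgeR), which is 6.96-fold, and it was called, as were 41.3% of 15812 genes. OD raised it by 0.60 (SE 0.10, FDR 1.35e-05), which is 1.51-fold and under the fold limit. In that comparison 17.1% of genes were called and 34.7% were higher at this FDR without the fold limit. The difference of 2.20 between CoCl2 and OD (SE 0.082, FDR 8.82e-19) was called, along with 29.9% of genes.

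The response of the host gene differed between the lines for each agent, in opposite directions. In a fit of all 18 mRNA libraries, the CoCl2 response of MIR210HG was larger in HT-29 than in Caco-2 by 0.79 (SE 0.16, FDR 0.000130, edgeR), and the OD response was smaller by a log2 difference of -0.88 (SE 0.17, FDR 7.84e-05). Neither passed the fold limit (the OD difference did without Caco-2 control replicate 2, at -1.003), whereas 21.6% (CoCl2) and 15.2% (OD) of 17921 genes did, and 49.8% and 42.9% had an FDR under 0.05. The controls of the lines overlapped, and HT-29 differed from Caco-2 by -0.14 (95% interval -0.41 to 0.13, FDR 0.324), in a comparison in which 45.8% of genes were called. Per length, the deposited values gave 3.18 ± 0.470, 11.6 ± 0.995 and 8.53 ± 1.06 RPKM (reads per kilobase of transcript, scaled for depth; SD, n = 3) in Caco-2 control, CoCl2 and OD. In HT-29 they gave 2.76 ± 0.301, 17.8 ± 0.659 and 4.05 ± 0.237 RPKM. Among 13153 Caco-2 genes listed with such values, the host moved from percentile 35.1 in controls to 71.9 with CoCl2 and 63.6 with OD. Among 12431 HT-29 genes it moved from 30.0 to 78.0 and 39.7. It lay below the median in untreated cells and passed it in each treated group but HT-29 with OD. With library size in place of TMM, mRNA differences from control fell by 0.32 (CoCl2) and 0.15 (OD) in Caco-2 and by 0.63 and 0.14 in HT-29. MIR210HG kept its direction, but an mRNA rise smaller than the shift of its comparison would not, while falls grow. All changes are given here relative to the TMM scale.

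**Figure D1:**
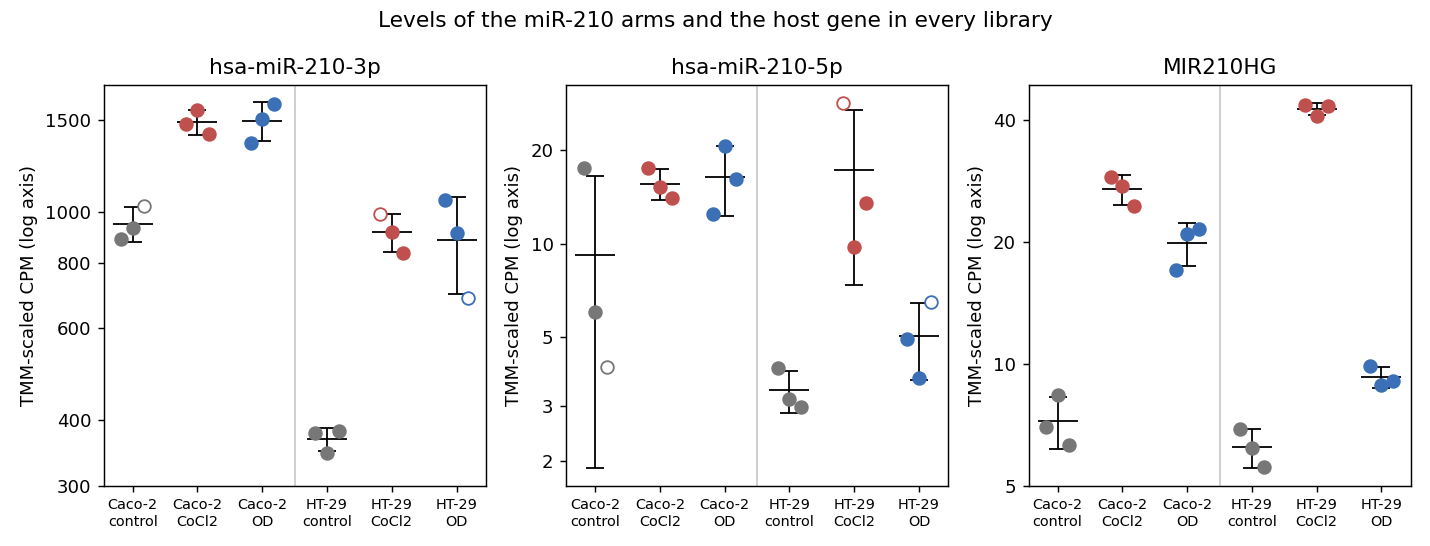
TMM-scaled CPM (log axis) of hsa-miR-210-3p, hsa-miR-210-5p and MIR210HG in each of 18 libraries per assay, with scaling within each line; points are libraries, the bar and whiskers are mean and SD (n = 3), and open circles are the miRNA libraries under 1000000 counts. The 3p arm stood near 900 CPM in both treated HT-29 groups (917 and 884), whereas MIR210HG stood at 42.7 with CoCl2 and 9.26 with OD.

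The guide strand was then examined. hsa-miR-210-3p was higher under either agent in each line, and the levels under CoCl2 and OD differed by less than the spread between replicates. In Caco-2, it held 5113, 6645 and 771 counts in controls, 5564, 11691 and 10020 with CoCl2, and 7869, 7432 and 11654 with OD. Since the libraries differ in depth, the share of all miRNA counts compares better. It was 0.0863%, 0.0912% and 0.101% in the controls, 0.147%, 0.157% and 0.142% with CoCl2, and 0.142%, 0.156% and 0.161% with OD. The treated libraries were all above the controls, as for 11.2% (CoCl2) and 8.99% (OD) of miRNAs, whereas CoCl2 and OD overlapped. Counting error alone was small beside this, as the exact (Clopper-Pearson) 95% interval of the shallowest Caco-2 library ran from 0.0940% to 0.108%. In rank among the miRNAs of a library, the 3p arm moved from places 70 to 72 in controls to places 54 to 57 in treated cells.

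The Caco-2 level of the guide was 951 ± 72.3 CPM (SD, n = 3) without treatment, 1488 ± 81.6 under CoCl2 and 1495 ± 128 under OD. CoCl2 raised hsa-miR-210-3p by 0.65 on the log2 scale (SE 0.088, FDR 0.00145, edgeR), which is 1.57-fold, and OD raised it by 0.66 (SE 0.088, FDR 0.000518), which is 1.58-fold. Neither rise reached the fold limit, and 0.936% (CoCl2) and 0.375% (OD) of 534 miRNAs were called, while 1.69% and 0.562% were higher at this FDR without the limit. The 3p arm had the smallest p-value of all 534 miRNAs for CoCl2 and the next to smallest for OD. CoCl2 differed from OD by -0.0070 (95% interval -0.19 to 0.18, FDR 0.996), and 0.375% of miRNAs were called between the agents. Both agents were compared with the same controls.

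In HT-29, hsa-miR-210-3p held 4082, 4286 and 3578 counts in controls, 35, 8959 and 6427 with CoCl2, and 9200, 7903 and 316 with OD. As shares of miRNA counts these were 0.0426%, 0.0327% and 0.0404%, then 0.103%, 0.0881% and 0.0787%, then 0.108%, 0.0860% and 0.0677%. Both shallow HT-29 libraries lay above all controls with the other treated libraries, although the interval of the CoCl2 one, 0.0716% to 0.143%, is wide. All treated libraries were above the controls for 5.68% (CoCl2) and 10.1% (OD) of miRNAs. The levels were 369 ± 19.0, 917 ± 77.9 and 884 ± 187 CPM (SD, n = 3), and the rank moved from places 100 to 106 in controls to places 69 to 82. CoCl2 raised the arm by 1.28 on the log2 scale (SE 0.14, FDR 5.46e-06, edgeR), which is 2.42-fold, and it was called, as were 4.87% of 616 miRNAs in either direction (4.71% were higher without the fold limit). OD also raised it by 1.28 (SE 0.13, FDR 3.26e-06), 2.43-fold, and it was called, as were 2.92% (2.76% higher without the limit). The difference between the agents was -0.0031 (95% interval -0.30 to 0.29, FDR 0.996), and 2.27% of miRNAs were called between them. Without the shallow libraries the rises were 1.26 and 1.42 and the difference between the agents was -0.16 (FDR 0.586).

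It was then asked whether the guide responded more in HT-29 than in Caco-2. The CoCl2 response of hsa-miR-210-3p was larger in HT-29 by 0.69 on the log2 scale (SE 0.18, FDR 0.0352, edgeR over 18 miRNA libraries), and the OD response by 0.58 (SE 0.17, FDR 0.0898). In this fit TMM takes the shallowest library, CoCl2 replicate 1 of HT-29 (34043 counts), as its reference. With a reference among the libraries of at least 1000000 counts, a setting chosen after the data were seen, the differences were 0.50 (FDR 0.273) and 0.50 (FDR 0.238). Whether the CoCl2 difference had an FDR under 0.05 thus depended on the reference. Neither of the differences passed the fold limit with either reference. With DESeq2 they were 0.63 (FDR 0.0104) and 0.70 (FDR 0.00585). Over all alternatives, the CoCl2 difference ran from 0.46 to 0.73, with an FDR from 0.0104 to 0.9998. The OD difference ran from 0.38 to 0.74, with an FDR from 0.00585 to 0.9998. For CoCl2 the FDR ran from 0.0898 to 0.386 when any single library of the groups compared was left out, and was 0.0539 without the shallow libraries. For OD it became 0.0183 without the shallow libraries, with a difference of 0.74. For OD it was also under 0.05 without OD replicate 3 of HT-29 alone (0.64, FDR 0.0327). Over all 675 miRNAs of this fit, 1.48% (CoCl2) and 0.741% (OD) were called, and 2.37% had an FDR under 0.05 for CoCl2. The 3p arm was lower in HT-29 controls than in Caco-2 controls by a log2 difference of -2.11 (SE 0.13, FDR 1.30e-13), in a comparison in which 62.4% of the miRNAs were called. The size of this difference depended on scaling, with -1.26 on library size alone, -1.60 with a deep TMM reference and -1.72 to -1.63 when any single control library was left out, which also moved the reference to a deep library. For the host gene the interval of this difference, from the other assay, included 0.

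The passenger strand was rare, with 35 to 257 reads of the 3p arm for each of its own. hsa-miR-210-5p held 101, 43 and 3 counts in Caco-2 controls, 66, 113 and 100 with CoCl2, and 72, 102 and 117 with OD. The controls were spread widely, and replicate 1 lay among the treated libraries. The levels were 9.20 ± 7.30, 15.6 ± 1.77 and 16.5 ± 4.14 CPM (SD, n = 3), and the log2 fold changes were 0.51 for CoCl2 (95% interval -0.18 to 1.21, FDR 0.377, edgeR) and 0.60 for OD (-0.090 to 1.28, FDR 0.369). These values turned on single control libraries. Without replicate 1 they were 1.38 (FDR 9.33e-05) and 1.47 (FDR 5.15e-05), both called, and without replicate 2 they were 0.016 (FDR 0.981) and 0.11 (FDR 0.836).

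In HT-29, hsa-miR-210-5p was called under CoCl2 and not under OD. It held 43, 39 and 28 counts in HT-29 controls, 1, 95 and 104 with CoCl2, and 43, 32 and 3 with OD. The levels were 3.37 ± 0.532, 17.2 ± 9.85 and 5.04 ± 1.40 CPM (SD, n = 3), where the highest CoCl2 value rests on a single read. The CoCl2 libraries were all above the controls, as for 5.68% of miRNAs, and all above OD, as for 6.17%, and OD overlapped with the controls. With CoCl2 the 5p arm rose by 1.78 on the log2 scale (SE 0.21, FDR 1.30e-05, edgeR), 3.44-fold, and was called, as were 4.87% of miRNAs. Without the shallow libraries the value was 1.78 (FDR 0.000223). With OD the change was 0.38 (95% interval -0.13 to 0.89, FDR 0.487). CoCl2 exceeded OD by 1.40 (SE 0.24, FDR 0.000869), which was called, along with 2.27% of miRNAs. DESeq2 gave similar sizes without a call, 1.86 for CoCl2 against control (FDR 0.173) and 1.39 for CoCl2 against OD (FDR 0.642), so these calls depend on the tool. Between the lines, the 5p response differed by 1.39 for CoCl2 (95% interval 0.42 to 2.36, FDR 0.148, edgeR) and by -0.18 for OD (-1.23 to 0.87, FDR 0.969). The CoCl2 difference was called without Caco-2 control replicate 2 (1.70, FDR 0.00348) or replicate 3 (1.40, FDR 0.0423). The 5p arm was lower in HT-29 controls than in Caco-2 controls by a log2 difference of -2.48 (SE 0.35, FDR 6.96e-07), in a comparison in which 62.4% of miRNAs were called. This difference was -1.19 without Caco-2 control replicate 1, -1.57 on library size alone and -1.98 with a deep TMM reference.

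**Figure D2:**
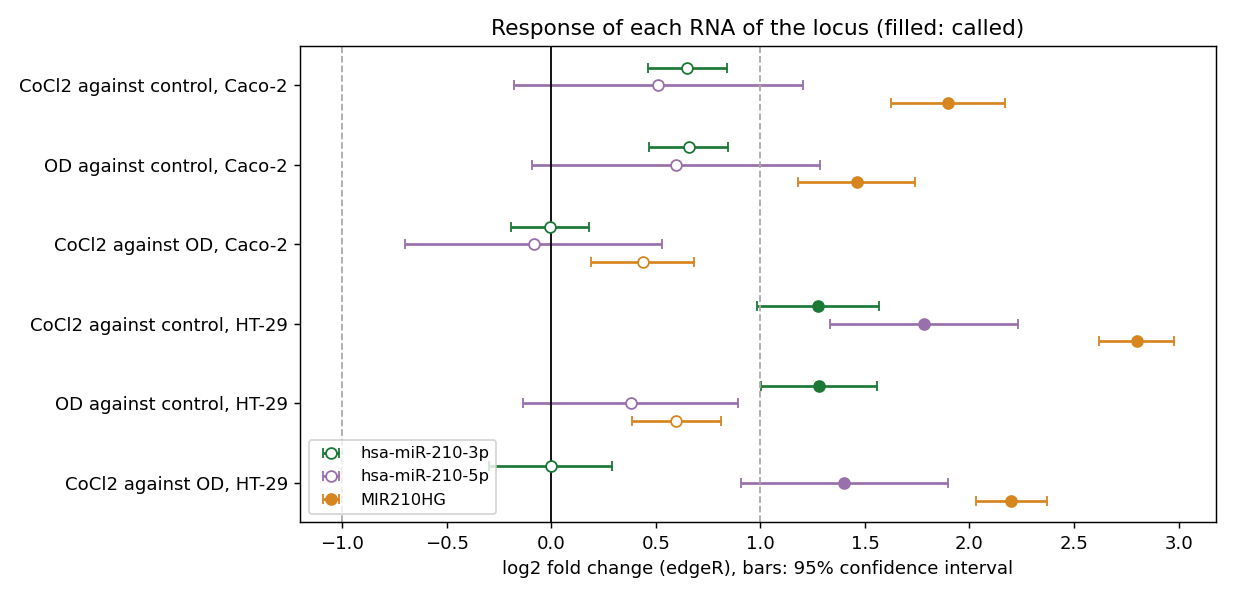
Log2 fold change of each member in the 6 comparisons within a line (edgeR; bars are 95% intervals, filled points are called, dashed lines mark the fold limit). In HT-29 the 3p arm stood at 1.28 for each agent, while MIR210HG stood at 2.80 for CoCl2 and 0.60 for OD.

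Since both arms of the hairpin are counted in the same library, their ratio does not depend on scaling between libraries. The 5p arm made up 0.989 ± 0.831% of the reads of both arms in Caco-2 controls (SD, n = 3), 1.04 ± 0.116% with CoCl2 and 1.08 ± 0.237% with OD. The Caco-2 groups overlapped. In HT-29 the shares were 1.04%, 0.902% and 0.776% in the controls, 2.78%, 1.05% and 1.59% with CoCl2, and 0.465%, 0.403% and 0.940% with OD. The CoCl2 libraries were all above the controls and above OD, but replicate 1 rests on 1 read of 36 (exact 95% interval 0.0703% to 14.5%) and replicate 2 (0.850% to 1.28%) lay within counting error of the highest control. The log2 ratio of 5p to 3p was taken with 0.5 added to each count. It was higher with CoCl2 than in HT-29 controls by 1.08 (exact permutation p = 0.1, two-sided, the smallest that 3 against 3 allows). It was higher than with OD by 1.70 (exact permutation p = 0.2), where this addition placed CoCl2 replicate 2 below OD replicate 3. Over 7 such comparisons the adjusted p was 0.7 for these and 0.9 for the others. Without the shallow libraries, CoCl2 exceeded control by 0.51 and OD by 1.58.

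**Figure D3:**
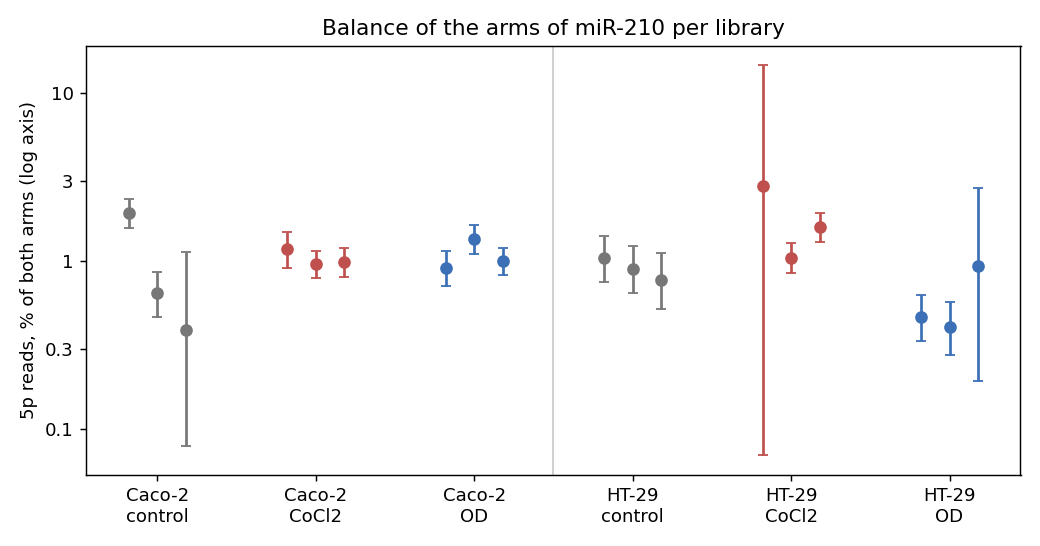
Share of 5p reads among the reads of both arms of miR-210 in each miRNA library (log axis), with exact 95% binomial intervals that cover counting error only. In HT-29 the deep OD libraries stood at 0.465% and 0.403% and the deep CoCl2 libraries at 1.05% and 1.59%.

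The host and the arms were measured in different assays, so their changes can only be set side by side. In Caco-2 the log2 rises with CoCl2 were 1.90 for MIR210HG, 0.65 for the 3p arm and 0.51 for the 5p arm, and with OD 1.46, 0.66 and 0.60. In HT-29 they were 2.80, 1.28 and 1.78 with CoCl2 and 0.60, 1.28 and 0.38 with OD. In HT-29 the guide had the smallest of the 3 changes under CoCl2 and the largest under OD. No test was made across the assays.

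Other long noncoding host genes of miRNAs were used for comparison. Of 19 such genes, 18 were in the table, of which the Caco-2 fit tested 10 and the HT-29 fit 11. With CoCl2 in Caco-2, 4 of 10 were called higher and 0 lower, beside 9.13% and 14.2% of all genes, and with OD 1 was called in each direction, beside 4.43% and 7.27%. In HT-29, 3 of 11 were called higher and 3 lower with either agent, beside 17.4% higher and 23.9% lower with CoCl2, and 9.5% and 7.57% with OD. MIR22HG was called with CoCl2 in either line (2.03 and 3.38) and with OD in HT-29 (1.12), and rose by 0.40 (FDR 0.00153) with OD in Caco-2. MIR193BHG was called higher in all 4 comparisons, by 2.30 (CoCl2) and 1.64 (OD) in Caco-2 and by 3.29 and 1.20 in HT-29. MIR17HG, which holds the miR-17 to miR-92a cluster, was called lower in 3 of them, at -1.20 under OD in Caco-2, and at -2.63 (CoCl2) and -2.12 (OD) in HT-29.

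Where both RNAs were tested, the changes of the miRNAs from these hosts spanned a narrower range than those of the hosts. In Caco-2, 0 of the 15 pairs with both RNAs tested had a called miRNA, and the miRNA changes ran from -0.24 to 0.19 with CoCl2 and from -0.22 to 0.48 with OD. Hosts in the same pairs ran from -0.56 to 2.30 and from -1.20 to 1.64. In HT-29 the miRNA changes ran from -0.44 to 1.10 and from -0.42 to 0.63, and those of the hosts from -3.38 to 3.38 and from -2.19 to 1.20. With CoCl2, 2 of the 16 HT-29 pairs had a called miRNA, and 0 had one with OD. Outside these pairs, hsa-miR-100-5p (3.21, FDR 2.30e-08) and hsa-miR-9-5p (1.01, FDR 0.0167) were also called with CoCl2 in HT-29. Their listed hosts, MIR100HG and MIR9-3HG, were too low to be tested. The called miRNAs of the pairs were hsa-miR-193b-3p (1.10, FDR 0.00104) and hsa-miR-365a-3p (1.03, FDR 0.000128), both listed for MIR193BHG. Reads of hsa-miR-365a-3p cannot be told apart from those of hsa-miR-365b-3p, which was not listed for this host. Its rise is therefore not tied to MIR193BHG alone. hsa-miR-22-3p stood at 0.02 and 0.09 in Caco-2 with CoCl2 and OD, and rose by 0.70 and 0.47 in HT-29 (FDR 0.000298 and 0.00786), under the fold limit. hsa-miR-17-5p in HT-29 stood at -0.23 (CoCl2, FDR 0.286) and -0.11 (OD, FDR 0.751), where its host fell by 2.63 and 2.12. With OD in HT-29, the highest miRNA change in these 16 pairs was 0.63, below the 1.28 of hsa-miR-210-3p.

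**Figure D4:**
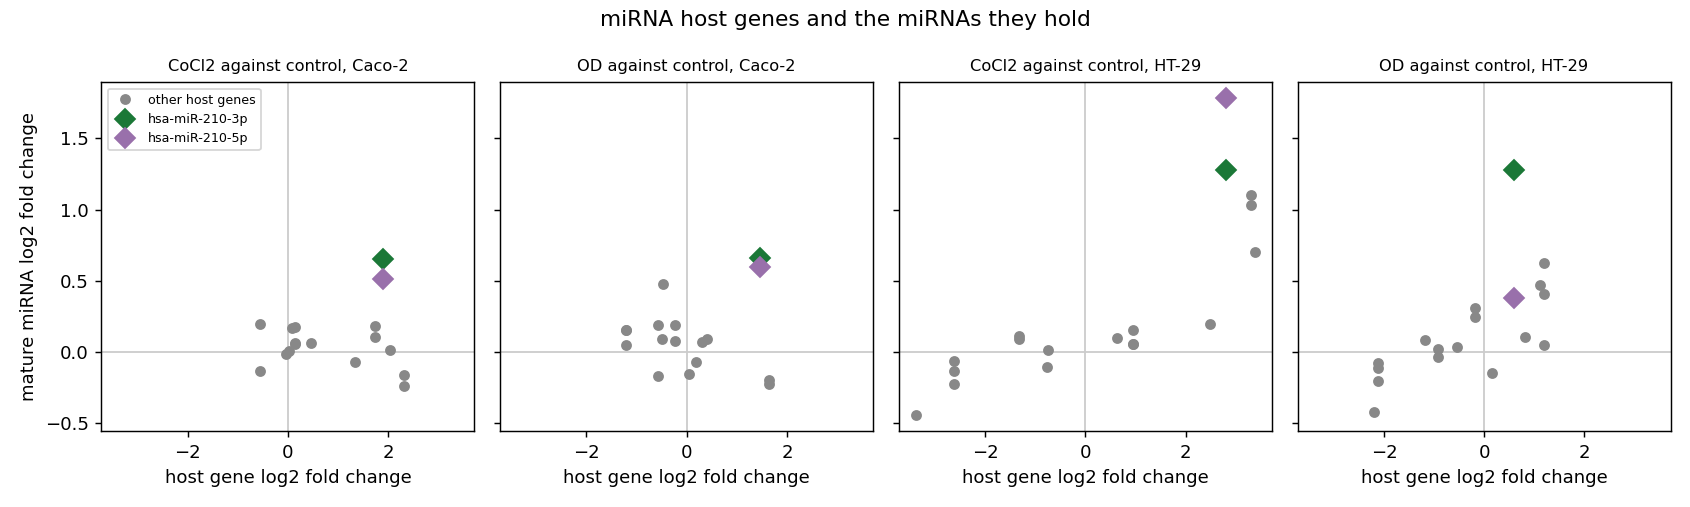
Log2 fold change of the mature miRNA against that of its host gene, with a panel for each treatment comparison; grey points are other host genes and diamonds are the arms of miR-210. In the panel for OD in HT-29, hsa-miR-210-3p stands at 1.28 over a host change of 0.60, while other miRNAs run from -0.42 to 0.63.

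The HIF pathway and its known target genes give the setting of the host gene. Of 17 HIF target genes, 16 of 16 tested were called higher with CoCl2 in Caco-2 and 14 of 16 with OD, against 9.13% and 4.43% of all genes, with medians of 3.11 and 2.39 on the log2 scale. In HT-29, 16 of 17 were called higher with CoCl2 and 9 of 17 with OD, against 17.4% and 9.5%, with medians of 3.18 and 1.01. The median over all genes tested lay between -0.03 and 0.01. SLC2A1, the glucose transporter GLUT1, rose by 3.20 (CoCl2) and 2.75 (OD) in Caco-2, by 3.18 under CoCl2 in HT-29 and by 0.42 (FDR 4.68e-07) with OD in HT-29. PDK1, a pyruvate dehydrogenase kinase, rose in the same 3 comparisons by 3.34, 2.76 and 2.93 and stood at -0.06 (FDR 0.462) with OD in HT-29. NDRG1, a stress response gene, was called in all 4 (2.87, 2.46, 5.97 and 2.82), as were LDHA (2.75, 2.51, 3.18 and 1.01) and PGK1 (2.34, 1.97, 2.88 and 1.18), both enzymes of glycolysis. MIR210HG thus stood below the list's median in each of the 4 comparisons. Of 15 target genes with a promoter in the table, 13 held ACGTG or GCGTG, beside 48.4% of all 35116 promoters. This comparison does not account for base composition, and a match is not evidence of binding.

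Within the pathway itself, 2 of 11 genes were called higher and 1 lower with CoCl2 in Caco-2, and 1 and 1 with OD. In HT-29, 4 of 10 were called higher and 0 lower with CoCl2, and 0 in either direction with OD by edgeR, where 5 were higher and 3 lower without the fold limit and 8 had an unadjusted p under 0.05. Without the fold limit, 34.7% of all genes were higher and 34% lower with OD in HT-29. An unadjusted p under 0.05 was found there for 11219 of 15812 genes (edgeR). The counts of the list with OD in HT-29 are thus not far from the background. Over all genes the shares called higher and lower were 9.13% and 14.2%, then 4.43% and 7.27% in Caco-2, and 17.4% and 23.9%, then 9.5% and 7.57% in HT-29, so the Caco-2 counts lay near the background. EGLN1, the main HIF prolyl hydroxylase, rose by 2.95 (CoCl2) and 2.24 (OD) in Caco-2, by 3.03 under CoCl2 in HT-29 and by 0.43 (FDR 0.000670) with OD in HT-29. EGLN3, another of these enzymes, rose by 2.89 in Caco-2 and 3.99 in HT-29 under CoCl2, and by 0.94 and 0.20 under OD. HIF1A, the oxygen-regulated subunit of HIF-1, was called with CoCl2 in HT-29 (1.40) and changed by 0.40, 0.07 and 0.65 in the other comparisons. EPAS1, the subunit of HIF-2, rose by 0.55 to 0.79 in all 4. VHL, which recruits the ligase that degrades HIF, ran from -0.44 to 0.15. HIF3A was lower in Caco-2 (-1.84 and -1.24).

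Genes known as targets of the guide moved in both directions. Of 35 listed targets, the Caco-2 fit tested 33 and the HT-29 fit 32. With CoCl2 in Caco-2, 3 were called higher and 4 lower, and with OD 4 and 2; in HT-29, 9 were called higher and 5 lower with CoCl2, and 4 and 2 with OD. As shares these were 9.09% higher and 12.1% lower, then 12.1% and 6.06% in Caco-2, and 28.1% and 15.6%, then 12.5% and 6.25% in HT-29. The shares over all genes, in the same order, were 9.13% and 14.2%, 4.43% and 7.27%, 17.4% and 23.9%, and 9.5% and 7.57%, and in several of these comparisons the list differed from them by about 1 gene. The median log2 change of the list was -0.04, 0.15, 0.28 and 0.0044, and that of all genes -0.03, -0.02, -0.03 and 0.0057. The list was written from general knowledge, and BNIP3 stands on the list of HIF targets too, as HIF3A does on that of the pathway.

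Among the targets named in advance or called in 1 direction in at least 3 of the 4 comparisons, changes ran in both directions. Most targets called lower are counted above and are not named here. ISCU, the scaffold of iron-sulfur cluster assembly, had log2 changes of 0.33 and -0.0095 with CoCl2 and OD in Caco-2 and of 1.21 (called) and 0.35 in HT-29. COX10, needed for the heme of cytochrome c oxidase, ran from -0.07 to 0.32. SDHD, a subunit of respiratory complex II, stood at -0.80 with CoCl2 (FDR 2.05e-06) and -0.18 with OD in Caco-2, and at -0.04 and -0.40 in HT-29. NDUFA4, a subunit of cytochrome c oxidase, was called higher with CoCl2 in HT-29 (1.47), with 0.46, 0.07 and -0.22 elsewhere. GPD1L, a glycerol phosphate dehydrogenase, was called lower with CoCl2 in both lines (-1.12 in Caco-2 and -1.17 in HT-29). Under OD it fell by 0.54 in Caco-2 and rose by 0.67 in HT-29, where the guide rose by 1.28 under each agent. EFNA3, an ephrin ligand, was called higher in all 4 comparisons (3.15, 1.81, 3.49 and 1.69). TFRC, the transferrin receptor, rose in all 4, by 0.80, 1.12, 0.83 and 0.65. KCMF1, a ubiquitin ligase, was called higher in 3 (1.65, 1.14 and 2.08; 0.59 with OD in HT-29), and BNIP3, a mitophagy receptor that is also a HIF target, in 3 (3.58, 2.70 and 1.01; 0.51 with CoCl2 in HT-29).

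The sites that carry the match to the seed are shown for the targets named here or with the pathway that have 1, as the 7 letters complementary to bases 2 to 8 of the 3p arm, in capitals, with 8 bases on either side. They lie in the 3′ UTR of the canonical GENCODE v44 transcript on GRCh38: ISCU at chr12:108569019-108569041 (plus strand), COX10 at chr17:14207554-14207576 (plus), GPD1L at chr3:32167534-32167556 (plus), EFNA3 at chr1:155087333-155087355 (plus), TFRC at chr3:196049712-196049734 (minus), KCMF1 at chr2:85053955-85053977 (plus) and HIF3A at chr19:46339686-46339708 (plus).
ISCU site: tatgagatACGCACAatacttgc
COX10 site: cacaccacACGCACActccacat
GPD1L site: ttgctgaaACGCACAttacctgg
EFNA3 site: cctatgcaACGCACAgacacttt
TFRC site: cgggtgttACGCACAcgtactta
KCMF1 site: tgcctcctACGCACAaagccagc
HIF3A site: ggcagccaACGCACAggatgggg
SDHD, NDUFA4 and BNIP3 held 0 such sites in this transcript, and FGFRL1, a fibroblast growth factor receptor-like protein, held 8. A site was present in 16 of the 34 targets with a 3′ UTR and in 575 of 19117 genes (3.01%), but targets are often picked by such sites in the first place.

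**Figure D5:**
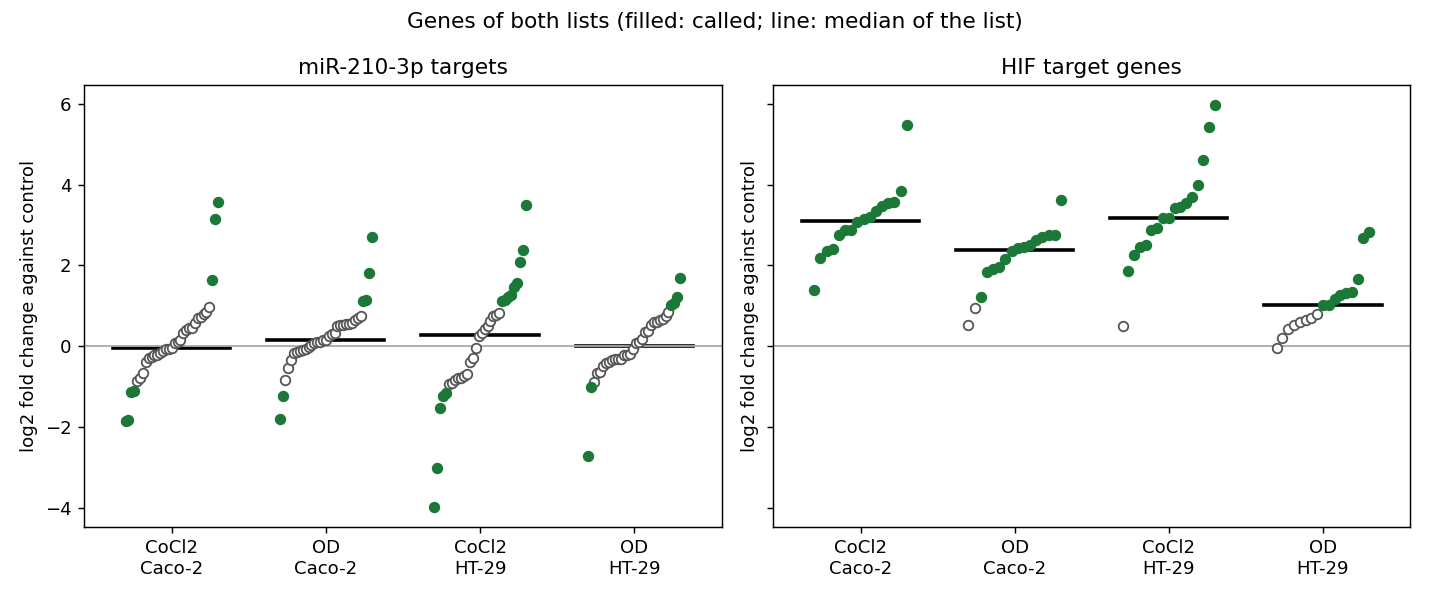
Log2 fold change against control (edgeR) of each tested gene of the miR-210-3p target list (left) and the HIF target list (right), in the 4 treatment comparisons; filled points are called and the line is the median. The target list is centred near 0, with medians from -0.04 to 0.28, and the HIF target list lies at medians of 3.11, 2.39, 3.18 and 1.01.

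All tested genes were also grouped by the number of such sites. With CoCl2 in Caco-2, the median log2 change was 0.0059 for 12221 genes with no site, -0.03 for 380 genes with 1 site and -0.07 for 36 genes with more. With OD these were 0.02, 0.03 and 0.10. In HT-29 they were 0.01, -0.03 and -0.18 with CoCl2 (11975, 355 and 30 genes) and 0.01, -0.0051 and 0.07 with OD. The genes with sites had longer 3′ UTRs (median 3111 against 1265 bases in Caco-2), so the groups differ in more than the site. A 3′ UTR was found for 99.5% of the protein-coding genes tested in each line.

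The machinery that makes miRNAs was then examined. Of 14 genes for processing and loading, 0 were called in Caco-2 with either agent and 1 in HT-29 with each, beside 23.4% (CoCl2) and 11.7% (OD) of all Caco-2 genes, and 41.3% and 17.1% of all HT-29 genes tested, while without the fold limit 3 were higher and 2 lower with each agent in Caco-2, where 6 had an unadjusted p under 0.05 (edgeR). In HT-29 these counts were 8 and 4 with CoCl2 and 6 and 6 with OD. Over all genes the shares without the fold limit were 31.6% higher and 33.1% lower (CoCl2) and 25.7% and 24.7% (OD) in Caco-2, and 40.7% and 42.2% (CoCl2) and 34.7% and 34% (OD) in HT-29. Of 16034 Caco-2 genes, 10849 (CoCl2) and 9089 (OD) had an unadjusted p under 0.05 (edgeR). DROSHA stood at 0.05 and -0.07 in Caco-2 with CoCl2 and OD, and in HT-29 at 0.46 (FDR 2.27e-08, edgeR) and -0.64 (FDR 1.36e-10). DICER1 ran from -0.11 to 0.42. AGO2, the slicing Argonaute, rose in each comparison, by 0.50 and 0.65 in Caco-2 and by 0.67 and 0.24 in HT-29. The called genes were TNRC6B, a partner of Argonaute, higher with CoCl2 in HT-29 (1.49), and DGCR8, the partner of DROSHA, lower with OD in HT-29 (-1.08).

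Other miRNAs that have been linked to hypoxia were compared as a list. Of 22 such miRNAs, all were tested in both lines and 0 were called in any of the 4 treatment comparisons by edgeR. Over all miRNAs 0.936% (CoCl2) and 0.375% (OD) were called in the Caco-2 fit, and 4.87% and 2.92% in that of HT-29, so a count of 0 in a list of this size is near the background. Without the fold limit, 1 was higher in Caco-2 under CoCl2 (hsa-miR-199a-5p, 0.78, FDR 0.0328) and 0 under OD. Over all miRNAs tested in that line, 1.69% were higher by this rule under CoCl2 and 0.562% under OD. Of all miRNAs tested for HT-29, 4.71% were higher under CoCl2 and 2.76% under OD by the same rule. From the list, 0 were higher there under CoCl2 and 2 under OD (hsa-miR-23a-3p, 0.51, FDR 0.00505, and hsa-miR-24-3p, 0.39, FDR 0.0259). Of the listed miRNAs, 0 were lower in any of the 4 comparisons. At an unadjusted p under 0.05 (edgeR) there were 3, 3, 3 and 5 of the list. Over all miRNAs tested there were 114 (CoCl2) and 90 (OD) of 534 in Caco-2, and 138 and 119 of 616 in HT-29. Their median log2 change ran from 0.04 to 0.16 in these comparisons, and that of all miRNAs from -0.04 to 0.0015. hsa-miR-21-5p, an abundant oncogenic miRNA, stood between -0.02 and 0.25.

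The features most like each member were found by Pearson's r of log2 CPM over the 18 libraries of an assay, each library minus the mean of its own line. These are descriptions over libraries that share their treatment groups. For MIR210HG the nearest of 17920 genes were PFKFB4 (r = 0.995), a glycolytic regulator, KDM4B (0.994), a histone demethylase, STK35 (0.990), a kinase, and PKM and GPI (both 0.989), enzymes of glycolysis. In Caco-2, PFKFB4 went from 17.9 CPM to 281 under CoCl2 and 175 under OD, and in HT-29 from 5.94 CPM to 259.9 and 14.8, the same order of groups as the host. For hsa-miR-210-3p the nearest of 674 miRNAs were less close: hsa-miR-22-3p (0.764), hsa-miR-126-5p (0.653), its own passenger hsa-miR-210-5p (0.609), hsa-miR-215-3p (0.592) and hsa-miR-548ad-5p (0.511). For hsa-miR-210-5p they were hsa-miR-365a-3p (0.800) and hsa-miR-365b-3p (0.799), whose reads cannot be told apart, hsa-miR-2110 (0.797), hsa-miR-1827 (0.787) and hsa-miR-331-5p (0.769). Without the 3 shallow libraries, 2 of the 5 names stayed for each arm, hsa-miR-126-5p and hsa-miR-22-3p for the 3p arm and the pair of miR-365 for the 5p arm.

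The neighbours of the locus were examined next. Of 12 genes within 50 kb of MIR210HG, 9 were in the table and 8 were tested. In Caco-2, 2 were called higher and 2 lower under CoCl2, and 1 and 0 under OD. In HT-29 these counts were 1 and 1, then 2 and 0. Beside the shares of all genes (9.13% and 14.2%, 4.43% and 7.27%, 17.4% and 23.9%, and 9.5% and 7.57%, in this order), each count differed by less than 2 genes from the background. RASSF7, a RAS association domain gene on the plus strand whose end lies 1632 bases from that of the host, was called higher in Caco-2 (1.19 and 1.08 with CoCl2 and OD) and stood at 0.55 and -0.08 in HT-29. PHRF1, a ubiquitin ligase on the side of the promoter, changed by 0.99 and 0.37 in Caco-2 and by 1.19 (called) and -0.06 in HT-29. LRRC56 was called lower with CoCl2 in both lines (-1.40 and -2.52), and LMNTD2-AS1 in Caco-2 (-1.58). IRF7, an interferon regulator, was called higher in Caco-2 under CoCl2 (1.11) and in HT-29 under OD (1.44). CDHR5, a brush border cadherin, was called higher in HT-29 under OD (1.57). HRAS ran from -0.19 to 0.53 and LMNTD2 from -0.85 to 0.94, with no call. MIR210HG itself changed more than each of these 8 neighbours with CoCl2 in both lines and with OD in Caco-2. Whether strand was used in the counting of the mRNA reads was not stated, so reads of overlapping genes such as LMNTD2 and LMNTD2-AS1 may be mixed.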

How the data were processed

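Raw counts, of reads per gene and per mature miRNA, were deposited by the authors along with log2 tables of both. Per the study's methods and the submitters' processing notes, single-end reads were trimmed with cutadapt 2.10, mRNA reads were aligned with STAR 2.7.5b to GRCh38.p13 and counted on a GENCODE annotation. Bowtie 1.1.1 and edgeR 3.30.3 are named in these notes without a role. The counting tool, its use of strand and the miRNA annotation are not given in the sources used here. The log2 tables deposited by the authors hold log2(RPKM + 1) for mRNA and log2(CPM + 1) for miRNA, scaled within each line. They served for RPKM levels and as an alternative, and 0 of their columns lacked a sample.

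Each line and RNA class was fitted over its 9 libraries in edgeR 4.0.16 (R 4.3.3), on the deposited counts, with TMM scaling, filterByExpr, 1 coefficient per group and the two-sided quasi-likelihood test. All 18 libraries of a class were fitted for differences between lines. FDR (Benjamini-Hochberg) was taken over all features tested, and the thresholds, an FDR of 0.05 and an absolute log2 fold change of 1, are the study's. The study's DESeq2 (run here as 1.42.0), limma-trend (limma 3.58.1), other scalings, no filter, a replicate block, leaving out libraries and, added after the data were seen, a deep TMM reference for miRNAs were alternatives. P-values of the fits set a difference between groups against the spread between replicate cultures. Intervals for single libraries and the floor of 3 counts cover counting error only, since reads carried no molecular identifiers. The depth of each library is given in the report. The fit was tested on simulated data.

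The locus and the gene lists were chosen with earlier results of these data known, and the members of the locus were then taken by name. Genes named in the text are the members, the targets, pathway and processing genes listed by name in advance of this fit, list members called in at least 3 of the 4 treatment comparisons in 1 direction (for the HIF target genes, examples of these), otherwise the list's largest called changes, the 5 features most like each member, and tested neighbours. hsa-miR-199a-5p, hsa-miR-23a-3p, hsa-miR-24-3p, hsa-miR-21-5p and FGFRL1 were named after their values were seen. UTRs and neighbours are from GENCODE v44.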

Additional observations from a re-analysis of the deposited data

Results flagged for a closer look

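The response of MIR210HG differed between the lines for both agents, by 0.79 on the log2 scale for CoCl2 (larger in HT-29) and by -0.88 for OD (smaller in HT-29), each with an FDR under 0.05 in edgeR's test of the difference itself. The response of hsa-miR-210-3p to CoCl2 differed by 0.69 (larger in HT-29, FDR 0.0352), and its FDR was above 0.05 whenever a single library of the groups compared was left out and with a deep library as TMM reference (0.50, FDR 0.273). Line and culture state cannot be told apart in any of these.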

How the results depend on the processing

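Over 40 results and their alternatives, 462 values kept their direction and their side of the threshold. With no limit on the fold change, MIR210HG passed for CoCl2 against OD in Caco-2 (0.44), OD against control in HT-29 (0.60) and both differences between lines (0.79 and -0.88), and hsa-miR-210-3p for CoCl2 (0.65) and OD (0.66) in Caco-2 and the difference between lines for CoCl2 (0.69). DESeq2 did not call hsa-miR-210-5p in HT-29 for CoCl2 against control (1.86, FDR 0.173) or against OD (1.39, FDR 0.642), nor did limma-trend for the latter (1.46, FDR 0.156). Values near 0 turned sign: hsa-miR-210-3p for CoCl2 against OD in Caco-2 under DESeq2's size factors (0.00033) and DESeq2 (0.00030), and in HT-29 with no filter (0.050), limma-trend (0.038), the replicate block (0.054) and a deep TMM reference (0.013). Leaving out 1 library at a time, the difference for this arm ran from -0.065 to 0.034 in Caco-2 and from -0.14 to 0.16 in HT-29. So varied, the Caco-2 value of hsa-miR-210-5p ran from 0.016 to 1.38 for CoCl2, from 0.11 to 1.47 for OD and from -0.24 to 0.10 between the agents, and its differences between lines from 0.42 to 1.70 (CoCl2) and from -1.07 to 0.24 (OD). That of MIR210HG for OD ran from -1.003 to -0.80. The arm ratio without the shallow libraries was -0.12 (CoCl2) and -0.070 (OD) against control in Caco-2 and -0.31 between controls, and its ranges without 1 library were -0.12 to 0.95, -0.070 to 0.99, -0.16 to 0.13 (CoCl2 against OD in Caco-2) and -0.31 to 0.76. The fit of all 18 miRNA libraries takes a library of 34043 counts as its TMM reference, and each omission moved it to a deep one, so those values also move with the reference. Other causes were not tested. Same-numbered libraries correlated at -0.18 to 0.10 in their deviations from group means, so the numbers do not pair them, and the replicate block changed no call of a member. limma-trend was not run between controls, which were scaled within lines.

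Counts of called genes were 3747, 1876, 6524 and 2699 (Caco-2 CoCl2 and OD, HT-29 CoCl2 and OD) with edgeR, 1098, 381, 2520 and 744 with limma-trend, and 10370, 8084, 13097 and 10876 with no fold limit. Those of miRNAs were 5, 2, 30 and 18, against 0, 1, 8 and 3 with DESeq2, 0, 1, 7 and 3 with limma-trend and 35, 11, 75 and 44 with no fold limit (for the counts of 0, 81 and 95 at an unadjusted p under 0.05). In Caco-2 they ran from 2 to 19 and from 1 to 12 when 1 library was left out, CoCl2 gave 9 without the shallow one, and OD gave 1 with only the 6 libraries compared. Between the agents, 1868 (Caco-2) and 4734 (HT-29) genes became 341 and 1455 with limma-trend and 7957 and 12286 with no fold limit, and 2 and 14 miRNAs became 1 and 2 with DESeq2 or limma-trend (33 in HT-29 with no fold limit, and as few as 1 in Caco-2 without 1 library). For the differences between lines, 3875 (CoCl2) and 2724 (OD) genes became 1304 and 795 with limma-trend and 8916 and 7682 with no fold limit, and 10 and 5 miRNAs ran from 6 to 21 and up to 15 when 1 library was left out. limma-trend gave 5 and 1, no fold limit 16 for CoCl2, and for OD library size gave 10, DESeq2's size factors or a deep TMM reference 9 and DESeq2 3. Between controls, 8202 genes became 14175 with no fold limit. In depth, the 5p arm is limited by libraries with 1 or 3 of its reads.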
